A study of Mus musculus with 7 samples.

Results

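The miR-133 muscle family comprised 3 mouse hairpins, mmu-mir-133a-1, mmu-mir-133a-2 and mmu-mir-133b, of 2201 hairpins searched and 1228 on which a tag was placed. They were chosen by name. Small RNA below 70 nt had been sequenced on the SOLiD platform from HL-1 cells, an immortalised line derived from a mouse atrial tumour that keeps many features of heart muscle cells. Cultures were sampled as they passed from non-beating to mostly beating, with 2 libraries from day 1, 1 from day 2, 2 from day 3 and 2 from day 4. The replicate number marks 1 of 2 repeats of the time course, and day 2 came from time course 2 alone. As all libraries came from a single cell line, p-values measure the spread between cultures of that line. A tag is 1 sequence read, counts are numbers of reads, and each distinct tag sequence was placed on the hairpin it matched best. The libraries held 4891990 to 6829125 placed tags, and the family took 2.62% to 3.99% of them.

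miRNAs are cut from a hairpin, and either strand, named 5p or 3p after its arm, can be loaded into an Argonaute protein. The loaded strand finds messenger RNAs mainly by its seed, bases 2 to 8, so a start shifted by 1 base gives a different seed and a changed set of matching sites. miR-133a and miR-133b are characteristic of heart and skeletal muscle. miR-133a is known for restraining cardiomyocyte proliferation and the smooth muscle gene programme in heart, through targets that include serum response factor.

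The mature strands of mir-133b were taken from RefSeq (GRCm38.p6), because the start of the 3p strand decides which seed is presented. In both lines below the seed is in capitals, and the 3p strand lies at chr1:20682834-20682855 on the plus strand.
mmu-miR-133b-5p: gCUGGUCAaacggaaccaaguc
mmu-miR-133b-3p: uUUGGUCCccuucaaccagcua
The first 21 bases of miR-133a-3p and miR-133b-3p were identical, and the first differences lay at positions 22 and 23 counted from 1 at the annotated start. Tags that ended by position 21 therefore could not be assigned to either miRNA and were kept as a shared class. The most frequent mir-133b tags at each of the main starts show the change of seed, again in capitals.
annotated start, end 23: uUUGGUCCccuucaaccagcuac
+1 start, end 23: uUGGUCCCcuucaaccagcuac
Counting only tags of exactly these sequences, the first form held 19.5% and the second 17.9% of miR-133b-3p tags. The RefSeq table is not complete and lacks mir-133a-1 and mir-133a-2. Of its 1738 mouse mature sequences, 1 carried the annotated seed, miR-133b-3p itself, and 0 carried the seed of the +1 start. Because the shared bases include both seeds, miR-133a-3p presents the same pair of seeds.

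The 3p strands dominated the family. miR-133a-3p held 744075 tags, 57.3% of the family, and ranked 12 of 2128 tag classes. miR-133b-3p held 226802 tags (17.5%), miR-133a-5p 169878 (13.1%) and the shared 3p class 157861 (12.2%). Only 95 tags fell on the 5p arm of mir-133b, and 26 more matched mir-133c as well and were set aside. The shared tags stood in the deposited files under both miRNAs, 314999 tags in all, and were counted once here. miR-133a-3p was 3.28-fold ± 0.296 (SD, n = 7) as abundant as miR-133b-3p, with a range of 2.91 to 3.73 over libraries. The shared class made up 11.1% to 17.9% of the 3p tags.

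In tags per 1000000 placed tags (CPM), miR-133a-3p stood at 14953 and 13784 on day 1, 18136 on day 2, 22921 and 20451 on day 3, and 24811 and 15564 on day 4, with time course 1 first in each pair. Both day 3 values lay above both day 1 values, and so did both day 4 values, but the day 4 libraries lay far apart. miR-133b-3p stood at 5135 and 4433 CPM on day 1, 5821 on day 2, 6140 and 6512 on day 3, and 7356 and 4326 on day 4. Its day 4 libraries fell on either side of the day 1 range. miR-133a-5p stood at 4823 and 4028 CPM on day 1, 4485 on day 2, 4808 and 4070 on day 3, and 3707 and 3352 on day 4. For this strand the 2 day 4 values were the lowest of the 7. CPM is a share of placed tags, so a change in the total amount of miRNA cannot be seen in it. A lower or equal CPM is a lower or equal share, and need not be a lower or equal amount. The same limit holds for the tests between days. Using quantitative PCR, the authors reported a global rise in miRNA levels as the cultures became confluent. Both strands of miR-133a were in the set they measured, which was chosen for showing no consistent change in the sequencing. The level of that set rose from day 1 to day 4 of 1 time course, relative to small nucleolar RNAs. The authors' text gives the rise for the set as a whole, not for either strand of miR-133a. The shared class ranged from 3206 to 4705 CPM.

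**Figure D1:**
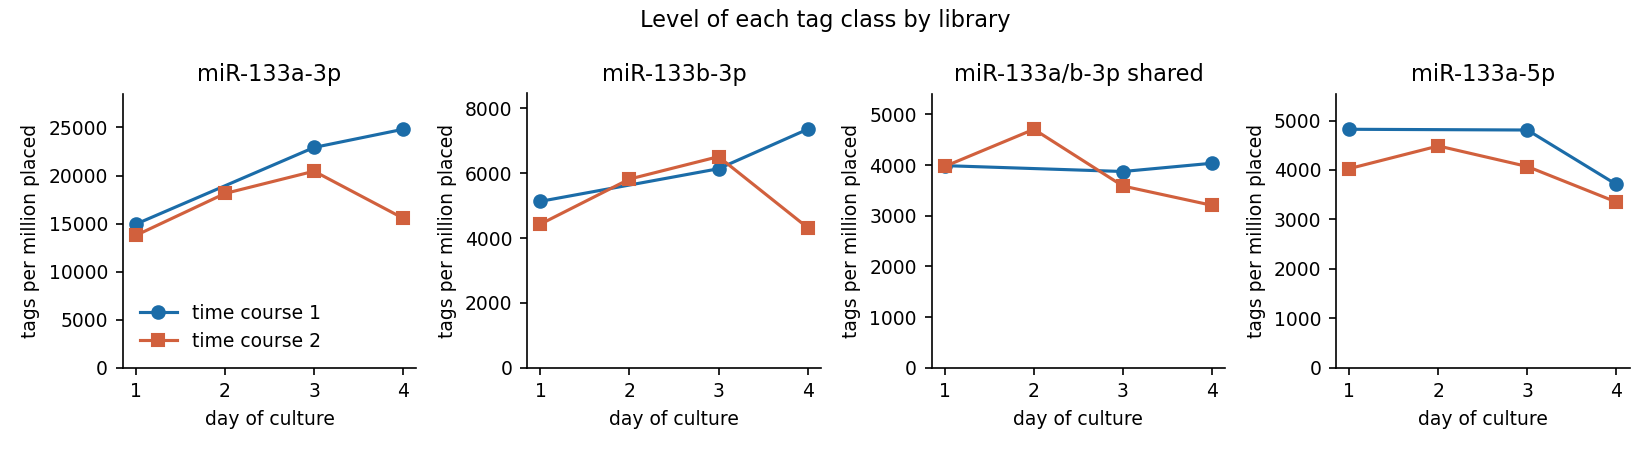
Level of the 4 abundant tag classes in CPM, a share of placed tags (vertical axis from 0), by day of culture. Each library is 1 point, with circles for time course 1 and squares for time course 2. On day 4 miR-133a-3p stood at 24811 in time course 1 and 15564 in time course 2.

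All 5 classes of the family passed the filter on low counts, and none passed the test between days. edgeR's quasi-likelihood test with Benjamini-Hochberg adjustment called 0 of 844 classes between day 4 and day 1 (0%), 0 between day 3 and day 1 (0%) and 0 between day 2 and day 1 (0%). At an unadjusted p under 0.05 there were 88, 45 and 34 classes, and DESeq2 called 9, 6 and 2. Among the unadjusted calls was 1 family class, miR-133a-3p between day 3 and day 1, with a log2 difference of 0.77 (SE 0.30, adjusted p = 0.897, and 0.180 with the time course as a block). With the time course as a block the calls were 24, 14 and 2, none in the family. Between day 4 and day 1 the log2 difference was 0.66 (SE 0.30, adjusted p = 0.509) for miR-133a-3p and 0.46 (SE 0.32, adjusted p = 0.671) for miR-133b-3p. Without the day 4 library of time course 1 these became 0.26 and 0.0051. The 5p strand of miR-133a differed by -0.15 (SE 0.28, adjusted p = 0.939). All tags on the 5p arm of mir-133b, 8 to 18 a library, differed by 0.45 (SE 0.53, adjusted p = 0.858), but 73 of these 95 tags began away from the strand. Tags on the strand itself numbered 7 and 4 on day 1 and 1 and 2 on day 4. The shared class differed by 0.03, and its sign changed to -0.14 when scaled to library totals. The 5 classes had a median log2 difference of 0.45 between day 4 and day 1, against 0.02 over all classes tested. That median is the value of the sparse 5p arm of mir-133b, and the other 4 classes ranged from -0.15 to 0.66. Between the time courses 67 of 844 classes were called (7.94%), 46 higher in time course 2, and 0 of the 5 family classes.

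Both 3p strands of the family were divided between neighbouring 5′ starts. Taking position 0 as the annotated start of miR-133b-3p and the matching base of miR-133a, 54.9% of miR-133a-3p tags began 1 base later (+1) and 41.2% at the annotated base. For miR-133b-3p 44.4% began at +1 and 53.1% at the annotated base, and for the shared class 27.2% and 71.7%. A start at +2 held 3.34% of miR-133a-3p and 2.31% of miR-133b-3p tags. Among the 62 classes with at least 100000 tags, the second most frequent start held a median of 1.11% of tags. miR-133b-3p ranked 1, miR-133a-3p 2, the shared class 5 and miR-133a-5p 6 in this share, given as a description. Among 520 classes with at least 150 tags the ranks were 3, 11, 46 and 105. Summed over the 3p pool, tags with the annotated seed stood at 13479 ± 2322 CPM and tags with the +1 seed at 13836 ± 3387 CPM (SD, n = 7).

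Over the days the +1 share of tags at these 2 starts of miR-133a-3p was 50.6% and 47.5% on day 1, 57.5% on day 2, 57.9% and 59.0% on day 3, and 58.6% and 65.9% on day 4. Both day 1 libraries lay below the other 5. For miR-133b-3p it was 41.3% and 39.8% on day 1, 46.8% on day 2, 45.7% and 43.1% on day 3, and 49.9% and 52.6% on day 4. Day 4 lay above day 1 in both time courses for this miRNA too. The shared class went from 23.7% to 28.3% in time course 1 and from 23.2% to 36.9% in time course 2. These differences did not pass adjustment. limma on log2 odds called 0 of 209 classes between day 4 and day 1 (0%), with 15 at an unadjusted p under 0.05, 2 of them in the family. The limma log2 odds of the +1 start differed by 0.78 (SE 0.23, adjusted p = 0.404) for miR-133a-3p and 0.63 (SE 0.19, adjusted p = 0.423) for miR-133b-3p. Between the time courses 0 of 209 classes were called (0%), with 44 at an unadjusted p under 0.05 and 0 of these in the family.

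**Figure D2:**
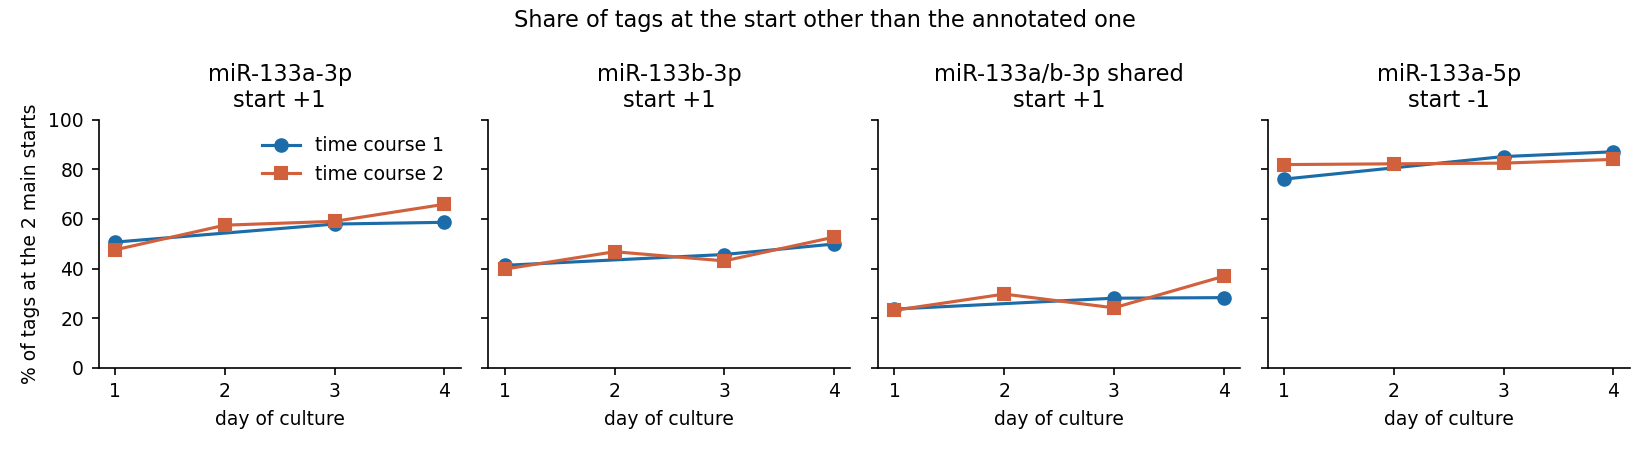
Percent of tags at the start other than the annotated one, out of tags at the 2 main starts (vertical axis, 0 to 100), by day of culture for 4 classes, 1 point per library and 1 line per time course. For miR-133a-3p the day 1 libraries stood at 50.6% and 47.5%, below the 57.5% to 65.9% of the later days.

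The +1 share was also compared between the miRNAs at the same 3′ end, since the 2 differ in where they end. Averaged over end positions 22 to 24, it was 51.8% ± 4.99 for miR-133a-3p and 43.7% ± 4.09 for miR-133b-3p (SD, n = 7). The difference was 8.12 points ± 2.73, from 4.92 to 11.4, and miR-133a-3p was higher in 7 of 7 libraries. The exact 2-sided sign-flip permutation test over libraries gave p = 0.0156 and an adjusted p = 0.0156 over 5 such tests, the smallest that 7 libraries can give. This test flips each library on its own and ignores that libraries of a time course are related, as do the sign-flip tests that follow. The difference was uneven along the end. It was 16.7 points ± 4.97 at end position 23, with miR-133a-3p higher in 7 libraries, and 6.91 ± 4.59 at position 22, with miR-133a-3p higher in 6. At position 24 it was 0.71 ± 3.47, and the shares were 56.9% and 56.2%. A miR-133b-3p tag that ends at position 22 differs from miR-133a-3p in 1 base. The part of misread bases in the value at that position, or of shared tags with an added base, was not tested.

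**Figure D3:**
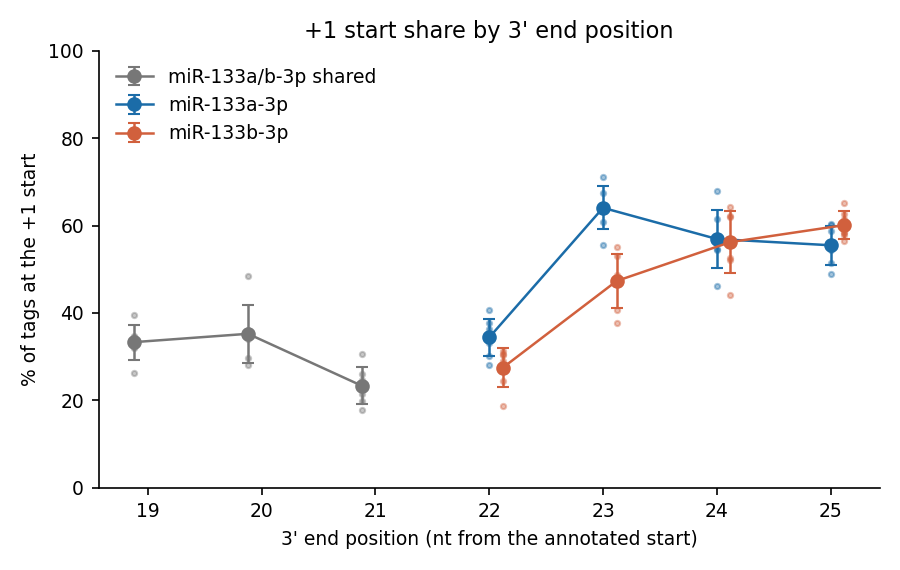
Percent of tags at the +1 start, out of tags at the annotated and +1 starts (vertical axis), by 3′ end position in nt from the annotated start, with 1 small point per library and the mean and SD of 7 libraries. At position 23 miR-133a-3p stood at 64.1% and miR-133b-3p at 47.3%, and at position 24 at 56.9% and 56.2%.

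The 3′ ends of the 2 miRNAs were laid out differently. Averaged over the 7 libraries, miR-133a-3p ended at position 23 in 69.1% ± 6.22 of tags, at 22 in 22.4% ± 5.90 and at 24 in 7.28% ± 0.844 (SD). miR-133b-3p was spread over these ends, with 25.5% ± 5.61 at 22, 39.8% ± 4.35 at 23 and 32.8% ± 6.09 at 24. Ends before 22 were open only to the shared class, of which 60.4% ended at 21. The most frequent single form of miR-133a-3p was 22 nt long, began at +1 and ended at 23 (43.1% of its tags). For miR-133b-3p the most frequent was 23 nt long, with the annotated start and end 23 (20.4%). Both shares count tags with mismatches too. Within miR-133a-3p, tags with the +1 start ended later, at a mean position of 22.95 ± 0.041 against 22.76 ± 0.057 for the annotated start (SD, n = 7). This difference of 0.198 nt ± 0.0235 had the same direction in 7 of 7 libraries (exact sign-flip permutation p = 0.0156, adjusted p = 0.0156). Ends before position 22 could not enter it.

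Between day 4 and day 1 the log2 odds of end 22 against end 23 in miR-133a-3p differed by -1.03 (SE 0.31, limma adjusted p = 0.393). limma called 0 of 298 classes for this comparison (0%), with 30 at an unadjusted p under 0.05, 1 of them miR-133a-3p. Each class was tested on its own second most frequent end against its most frequent end. The values were 0.44 for miR-133a-5p and -0.03 for the shared class, both for end 20 against end 21. For miR-133b-3p the value was 0.03, for end 24 against end 23. A positive value was thus a shift to the later end in miR-133b-3p and to the earlier end in the other classes. Between the time courses 0 of 298 classes were called (0%), with 28 at an unadjusted p under 0.05.

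**Figure D4:**
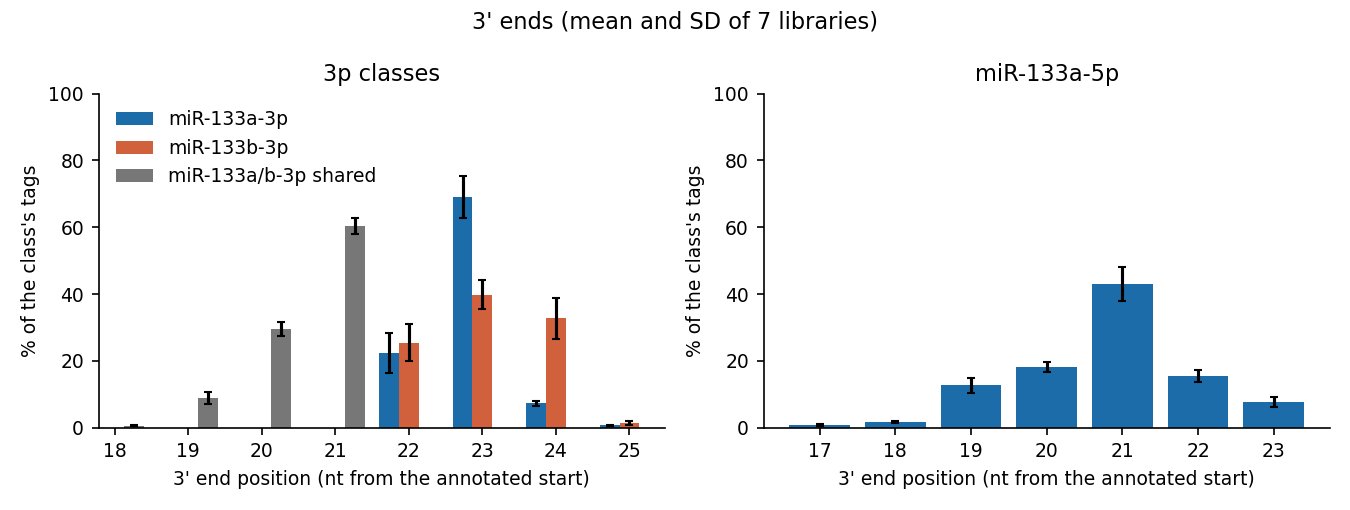
Percent of each class's tags (vertical axis, 0 to 100) by 3′ end position in nt from the annotated start, bars for the mean and error bars for the SD of 7 libraries. miR-133a-3p had 69.1% of its tags at position 23, whereas miR-133b-3p had 39.8% at 23 and 32.8% at 24.

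The 5p strand of miR-133a began 1 base before the position that matches the annotated start of miR-133b-5p in 81.2% of tags and at that position in 17.6%. Its ends were spread, with 42.9% at position 21, 15.5% at 22 and 12.7% at 19. Tags with the -1 start also ended earlier, at a mean position of 20.63 ± 0.080 against 21.64 ± 0.121 (SD, n = 7). The difference was -1.01 nt ± 0.099, in the same direction in 7 of 7 libraries (exact sign-flip permutation p = 0.0156, adjusted p = 0.0156). The share of the -1 start averaged 94.9% among tags ending at position 19, 92.5% at 20, 88.3% at 21, 60.7% at 22 and 50.5% at 23. At end position 17, with 0.951% of tags, it was 100% in every library. There a tag from the annotated start would be shorter than the 18-nt anchor the authors mapped, so it could not enter the comparison. Between day 1 and day 4 the -1 share went from 76.0% to 87.0% in time course 1 and from 81.9% to 84.0% in time course 2 (log2 odds difference 0.65, SE 0.27, limma adjusted p = 0.622).

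The 2 miRNAs differed in the use of the 5p arm. For miR-133a the 5p strand made up 18.8% ± 3.84 (SD, n = 7) of tags that began within 3 nt of an annotated start, and 15.9% ± 2.87 if all shared 3p tags were given to miR-133a. For miR-133b it was 22 of 226667 tags, or 0.00971% (95% Wilson interval 0.00641 to 0.0147, counting error only), with 1 to 7 tags a library. The log2 ratio of 5p to 3p was -2.14 ± 0.370 for miR-133a and -13.27 ± 0.799 for miR-133b, with a pseudocount of 0.5. The difference of 11.13 ± 0.442 had the same sign in 7 of 7 libraries (exact sign-flip permutation p = 0.0156, adjusted p = 0.0156). The 5p share of miR-133a was 24.4% and 22.6% on day 1, 19.8% on day 2, 17.3% and 16.6% on day 3, and 13.0% and 17.7% on day 4. The 2 day 1 values were the highest of the 7. The log2 ratio differed between day 4 and day 1 by -0.78 (SE 0.46, limma adjusted p = 0.547). limma called 0 of 159 hairpin families in this comparison (0%), 19 at an unadjusted p under 0.05 and 4 with the time course as a block, and 9 between the time courses (5.66%). mir-133a was among none of these calls.

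The copies mmu-mir-133a-1 and mmu-mir-133a-2 give the same mature strands and differed at 6 bases along the shorter, 68-nt hairpin. The nearest difference past the 5p start lay at position 23, so only 8.20% of 5p tags, those long enough, could be placed on 1 copy. Of the copy-specific 5p tags 96.4% ended at that position, so their assignment rests on 1 base at the 3′ end, where added and misread bases cannot be told from templated ones. In all, 11316 tags fell on mmu-mir-133a-1 alone and 3119 on mmu-mir-133a-2 alone. The first copy took 866 to 2374 tags a library and the second 247 to 578, with no overlap. The log2 ratio was 1.85 ± 0.109 (SD, n = 7), from 1.67 to 2.04, higher for mmu-mir-133a-1 in 7 of 7 libraries (exact sign-flip permutation p = 0.0156, adjusted p = 0.0156). Restricted to tags that cover at least 2 differing bases, chosen after seeing the data, the log2 ratio was 1.23. Of the loop between the strands, 299 tags fell on the first copy and 123 on the second. The share of the -1 start in 5p tags was 50.3% ± 7.52 on the first copy and 53.1% ± 8.01 on the second. These are shares of tags that reach the differing base, and among all miR-133a-5p tags ending at position 23 the share was 50.5%.

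**Figure D5:**
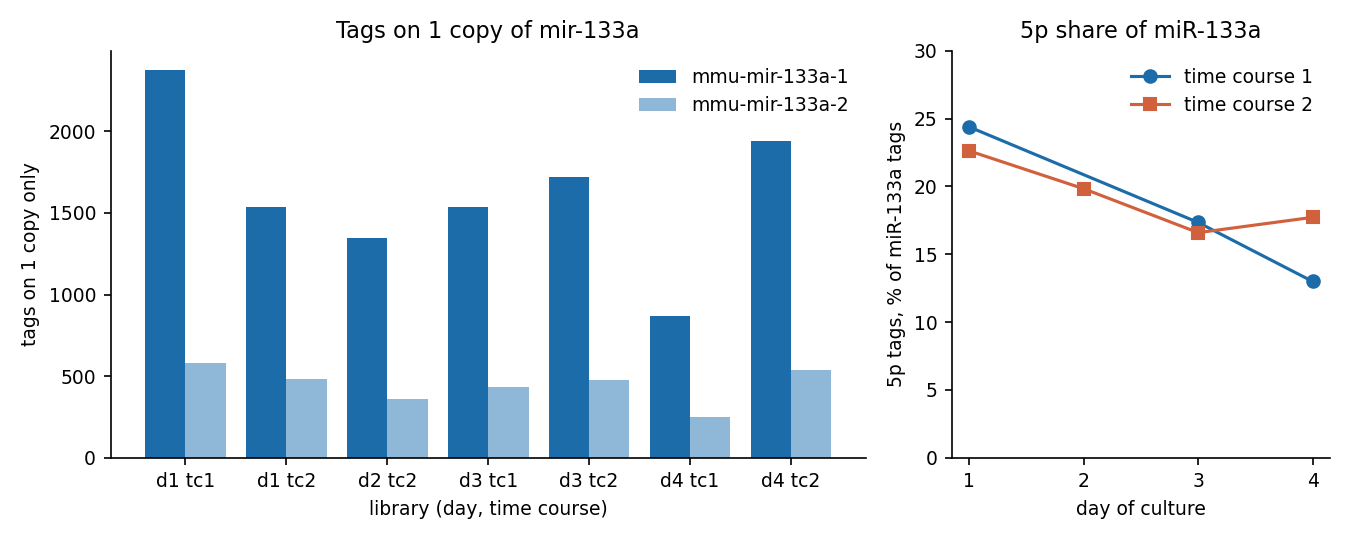
Left, tags that fall on 1 copy of mir-133a only (bars from 0) in each library, labelled by day (d) and time course (tc). Right, 5p tags as a percent of miR-133a tags by day, 1 line per time course, with 24.4% and 22.6% on day 1 and 13.0% and 17.7% on day 4. mmu-mir-133a-1 had 866 to 2374 tags and mmu-mir-133a-2 247 to 578.

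Each hairpin lies beside a hairpin of the related muscle miRNAs miR-1a or miR-206, with which it is known to share a primary transcript. In the GENCODE annotation of GRCm38, mmu-mir-133a-2 is at chr2:180398379-180398482 on the plus strand, 9254 bases from Mir1a-1, in no annotated gene. mmu-mir-133a-1 is at chr18:10782909-10782976 on the minus strand, 2504 bases from Mir1a-2, in an intron of its host transcript Mir133a-1hg and antisense to an intron of Mib1. mmu-mir-133b is at chr1:20682769-20682887 on the plus strand, in an exon of the noncoding Gm28653, 3686 bases from Mir206. miR-1a-3p stood at 64447 ± 7691 CPM and miR-206-3p at 518 ± 154 CPM (SD, n = 7). Tags that matched both, 1055 ± 569 CPM, formed a class of their own and entered neither these levels nor the ratios that follow. miR-133b-3p had a log2 ratio of 3.48 ± 0.461 to miR-206-3p, and miR-133a-3p one of -1.81 ± 0.424 to miR-1a-3p. Between day 4 and day 1 miR-1a-3p differed by 0.01, miR-1a-5p by -0.60 and miR-206-3p by 0.13 on the log2 scale, with edgeR adjusted p-values of 0.999, 0.671 and 0.971.

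By the root mean square difference of centred log2 CPM over 7 libraries, the profile of miR-133b-3p lay 0.12 from that of miR-133a-3p, nearer than any of 839 classes outside the family. The shared class lay at 0.32, miR-133a-5p at 0.34 and miR-1a-3p at 0.39, with 8.10%, 10.1% and 15.7% of the outside classes nearer. The 5 nearest of those were miR-29b-3p (0.15), miR-204-5p (0.16), miR-33-3p (0.18), a class of tags shared by 4 predicted genes at 2.16 CPM (0.21) and miR-450b-5p (0.21), against a median of 0.60. Of the striated muscle markers, 8 of 8 had tags and summed to 92664 to 112954 CPM. This list holds the family itself, miR-133a at 21785 to 32553 CPM and miR-133b at 4328 to 7360 CPM. In these marker levels the shared 3p tags were all counted under miR-133a and none under miR-133b. Tags shared by miR-1a and miR-206 were likewise all counted under miR-1a. miR-1a added 50876 to 72584 CPM, whereas miR-208b stood at 2.09 to 5.25 CPM and miR-499 at 2.86 to 11.2 CPM. The smooth muscle markers miR-143 and miR-145 summed to 146743 to 164705 CPM. Markers of fibroblasts, blood, neurons and liver each summed to below 64 CPM in every library, and the endothelial miR-126 ranged from 487 to 929 CPM. Their part in the family's levels was not tested.

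Tags with 1 mismatch made up 12.3% of miR-133a-3p, 4.70% of miR-133b-3p, 6.21% of the shared class and 5.26% of miR-133a-5p. In miR-133a-3p the mismatches lay mostly toward the 3′ end, at 5.40% of tags at position 21 and 3.53% at position 19, while at position 19 of miR-133b-3p the share was 1.88%. The value at position 21 ranged from 1.83% to 9.35% over libraries. The authors screened mismatches by base quality when mapping, and listed an internal C to T change for miR-133a-1. The deposited files hold no base qualities, so edited, extended and misread bases cannot be told apart from them. Tags outside the strands numbered 32 to 96 a library between the strands of the mir-133a copies and 0 to 11 between those of mir-133b. Before the 5p strand of mir-133b lay 72 tags, 6 to 15 a library, more than the 22 on that strand.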

How the data were processed

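Per the labels, RNA below 70 nt from HL-1 cells was made into SOLiD libraries. The authors mapped tags to miRBase hairpins and the mouse genome (mm9 in the submitters' processing notes), and deposited, per library, each tag's sequence with its count. The deposited values are raw counts. The members and lists were chosen with earlier results of these data known.

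The deposited data held 79503 distinct tag sequences. Those of at least 16 nt were searched against 2201 GENCODE hairpins and placed by the best ungapped hit (at most 2 mismatches, overhang of 4 bases or fewer). Of 41180696 deposited tags 99.7% were placed, and 101 lines without a sequence (293 tags) were left out. Tags tied between miRNA families formed classes of their own. For a tag placed on k families, up to k equal counts in a library were counted once, and the deposited sums were an alternative. Unequal counts were summed. Of 354 pairs of tag and library on 2 families, with a line of at least 100 tags, 213 (60.2%) had the largest count exactly 2 times. Starts of miR-133a were set at the bases that match those of miR-133b in RefSeq. CPM is per 1000000 placed tags. Named were all classes of the family, miR-1a-3p, miR-1a-5p and miR-206-3p, the 5 nearest profiles, and starts or ends with 5% of a class or on which a comparison rests.

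Abundance was tested with edgeR 4.0.16 (TMM factors 0.935 to 1.125, filterByExpr, quasi-likelihood, day as a factor over 7 libraries, time course added for its own comparison), and DESeq2 1.42.0 as an alternative. Start, end and arm ratios were tested with limma 3.58.1 on log2 odds with a pseudocount of 0.5, where each library held 50 tags of the class and 10 of each outcome. Day 2 has 1 library and borrows its spread from the others. Within-library differences were tested by an exact 2-sided sign-flip permutation over 7 libraries, adjusted over 5 tests. The scripts were tested on simulated data. Same-numbered libraries are from the same repeat of the time course, and their residuals correlated at 0.383, 0.393 and 0.338 for days 1 and 3, 1 and 4, and 3 and 4, so the replicate block is a paired fit. Taken from mean log2 CPM rather than fitted differences, the median class differed by 0.035 between day 4 and day 1 after TMM and by -0.127 with library totals.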

Additional observations from a re-analysis of the deposited data

Results flagged for a closer look

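Of 16 measures of the family compared between day 4 and day 1, 6 moved in opposite directions in the 2 time courses, each with 1 library per day and time course. The difference between the time courses was not tested. miR-133b-3p changed by 2222 CPM in time course 1 and by -107 CPM in time course 2. The shared 3p class changed by 47.0 and -768 CPM, and the 5p arm of mir-133b, with 8 to 18 tags a library, by 1.19 and -0.118 CPM. The share of copy-specific tags on mmu-mir-133a-1 changed by -2.61 and 2.12 points. The gap in +1 share between miR-133a-3p and miR-133b-3p at matched ends changed by -1.52 and 5.46 points. The gap in mean 3′ end between the starts of miR-133a-5p changed by 0.149 and -0.239 nt.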

How the results depend on the processing

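The 5 within-library differences kept their direction and passed the threshold in 48 of 48 alternatives. Of 325 values for single family classes under an alternative, 308 kept their direction and none passed the threshold, and summing the counts as deposited, chosen after seeing the data, was among them. The shared class reversed between day 4 and day 1 under DESeq2 (-0.024), RLE size factors (-0.0018), library totals (-0.14) and no filter (-0.053), and between day 3 and day 1 under library totals (-0.094). Without single libraries, its values ranged from -0.16 to 0.16 for day 4 and from -0.031 to 0.13 for day 3, its end ratio from -0.20 to 0.14, that of miR-133b-3p from -0.39 to 0.46, and miR-133b-5p between time courses from -0.49 to 0.11.

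Among all classes, calls between day 4 and day 1 were 9 with DESeq2, 8 without a filter and 24 with the replicate block. Day 3 gave 6, 8 and 14, and day 2 gave 2, 4 and 2. The replicate block also gave 4 arm ratio calls for day 4 and changed no family call. Between time courses abundance calls were 39 with no mismatch and 110 with shared tags divided equally, and 0 to 54 without single libraries, with 0 when day 4 of time course 1 was left out, 31 and 39 without day 1 and 23 and 20 without day 3 of time courses 1 and 2. The start ratio gave 1 call with a pseudocount of 5 and 1 with a minimum of 500 tags for day 4, and 2 with that minimum between time courses. Without single libraries, start calls for day 4 ranged from 0 to 2, with 2 when day 1 of time course 2 was left out, and arm calls from 0 to 7, with 7 when either day 3 library was left out. Arm calls between time courses were 0 with no mismatch and 0 to 12 without single libraries, 0 when any day 1 or day 4 library was left out. The cause was not tested.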
